A study of Mus musculus with 7 samples.

Results

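The genes described here encode the machinery that loads, docks, fuses and retrieves synaptic vesicles. They were a list of 56 genes chosen by name: synaptotagmins, SNAREs (the membrane fusion proteins) and their regulators, vesicle membrane proteins, active zone proteins and endocytic proteins. All 56 were measured, out of 19938 genes tested in the series. Cells were sorted from the whole bowel of mouse embryos at embryonic day 17.5 that carried Wnt1-Cre and R26R-EYFP, and their RNA was hybridised to 7 Affymetrix arrays. YFP-positive cells, labelled ENCDC, for enteric neural crest-derived cells, are on 4 arrays, numbered 1 to 4. YFP-negative cells of bowels of the same genotype, labelled non-ENCDC, are on 3 arrays, numbered 1 to 3. The study's design text gives its aim as finding genes enriched in ENCDC that may matter late in the development of the enteric nervous system.

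Wnt1-Cre recombines in the neural crest, so the YFP-positive fraction can hold enteric neurons, their progenitors and enteric glia together, and the YFP-negative fraction holds every other bowel cell type. Both fractions carry Cre and the reporter, and no other genotype is compared here. The labels do not say whether the arrays of a group came from separate embryos, litters or pools. The p-values below therefore measure only the spread between these 7 samples, which may be technical. Because each sample is a bulk of many cells, fewer cells of a type and less RNA per cell cannot be told apart.

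At a nerve terminal, synapsins tether vesicles and Rab3 proteins bring them to the active zone, where RIM and Munc13 proteins prime them. The vesicle SNARE synaptobrevin pairs with SNAP-25 and syntaxin-1 on the plasma membrane, and synaptotagmin triggers fusion when calcium enters. The ATPase NSF then takes the SNAREs apart, and clathrin adaptors, dynamin, endophilin and amphiphysin bring the membrane back. In the gut the same steps release acetylcholine and other transmitters from enteric neurons, while secretory epithelial and immune cells use related SNAREs and Rab proteins to release their granules.

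The labels fit the marker genes in part. All 9 measured neuron markers and all 6 measured enteric glia markers were higher in YFP-positive cells, led by Tubb3 and Fabp7, with median log2 fold changes of 3.93 for neurons and 2.96 for glia. Their mean log2 level per array lay between 8.65 and 9.34 in YFP-positive cells and between 5.06 and 5.44 in YFP-negative cells for the neuron list. All 6 myeloid and all 6 fibroblast markers were lower in YFP-positive cells. Of the 6 mast cell markers 4 were lower, and of the 6 smooth muscle markers 2 were lower, with 0 higher in either list. The 6 endothelium markers were mixed, with Kdr higher (log2 fold change 0.86), Pecam1 lower (-1.74) and 4 that did not pass. Of the 10 intestinal epithelium markers, 0 passed the limma test in either direction (1 had an unadjusted p below 0.05), and Lgals4, an epithelial galectin, averaged 10.1 ± 0.55 in YFP-positive cells and 10.1 ± 0.08 in YFP-negative cells (SD). The whole epithelial list averaged between 7.33 and 8.49 per YFP-positive array and between 8.04 and 8.09 per YFP-negative array, and the part of such cells in the results below was not tested. The enteroendocrine list, of gut hormone cells that also use this machinery, averaged between 6.15 and 7.25 per YFP-positive array and between 7.20 and 8.30 per YFP-negative array, with 2 of 10 markers lower and none higher.

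Of the 56 members, 35 were higher and 1 was lower in YFP-positive cells, and 20 did not pass the test. A gene passed at an adjusted p below 0.05 in limma, with Benjamini-Hochberg adjustment over all 19938 genes. By the same test 8.39% of all genes were higher and 9.11% were lower. The median log2 fold change of the members was 0.80, against 0.01 for all genes. Of the 35 higher members, 26 had a log2 fold change of at least 1, 8 of at least 2 and 4 of at least 3. Of all 19938 genes, 623, 201 and 69 passed as higher with changes of these sizes. For 42 members every YFP-positive array lay above every YFP-negative array, which held for 13.5% of all genes. For 3 members (Snap23, Syt13 and Dnm1) every YFP-positive array lay below, which likewise held for 13.5% of all genes, and the ranges of the other 11 overlapped. Of the 20 members that did not pass, 7 had an unadjusted p below 0.05. For 9 of the 35 higher members (Sv2b, Sv2c, Rab3c, Snap25, Napb, Syt1, Rims2, Cadps and Amph) the YFP-negative mean was below 5.06, the limit of the third of genes with the lowest means. The files give no detection calls, so these YFP-negative levels cannot be told from background, and no linear fold is given for these genes. All levels are log2 RMA values, in which 1 unit is a 2-fold difference, and the error after a log2 fold change is its standard error in the limma fit.

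**Figure D1:**
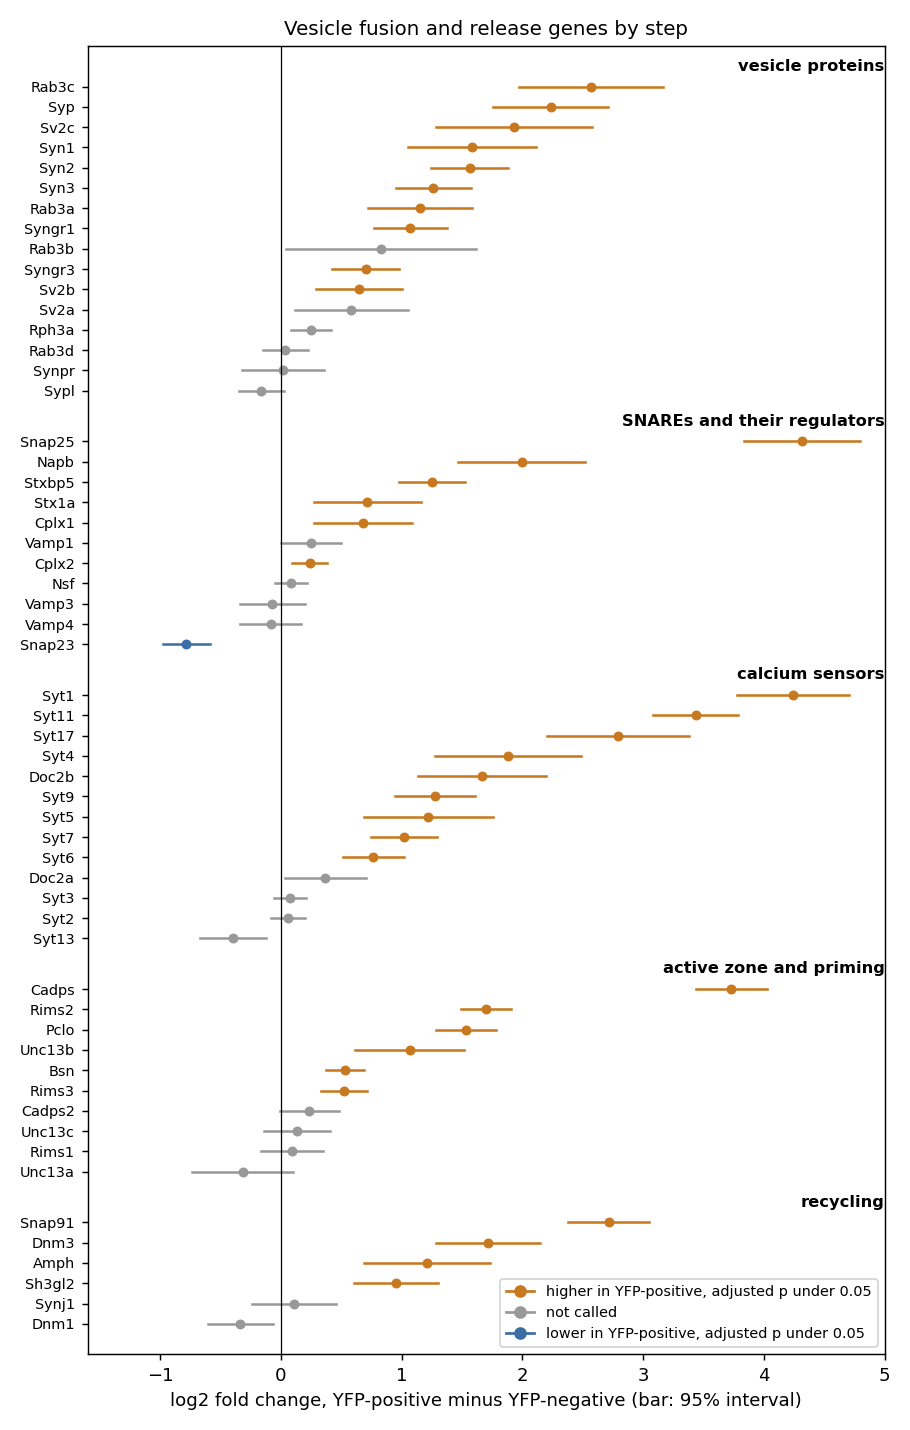
Log2 fold change (YFP-positive minus YFP-negative, x axis) of all 56 members, grouped by step and ordered within it, with bars for the 95% interval of the limma fit. Orange points passed the test as higher, the blue point (Snap23) as lower and grey points did not pass. Every step holds higher members, and Snap25, Syt1, Cadps and Syt11 lie farthest to the right.

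Promoters of the members were read for short motifs in windows from 250 bases before to 50 bases after the annotated start, from RefSeq on build GRCm38.p6. Of the 56 members 44 had such a window, some of them several (59 in all), and a gene counts where any of its windows holds the motif. Motifs were searched on both strands. The left arm of RE1, the site bound by REST, a repressor of neuronal genes in non-neuronal cells, is TTCAGCACC and stood in a window of 2 of the 44 members (4.55%: Syn1 and Unc13a), against 0.488% of the 15563 genes with a window. Its right arm, GGACAGC, stood in 4 of 44 (9.09%: Rph3a, Sypl, Syt6 and Unc13a), against 8.43%. The cAMP response element TGACGTCA stood in 2 of 44 (4.55%: Sh3gl2 and Syn1), against 2.72%. The GC box GGGCGG, a motif added after the data were seen, stood in 34 of 44 (77.3%), against 53% of all genes with a window. It was in 19 of the 26 higher members with a window and in 15 of the 18 others. A match is a description of letters and not evidence of binding, and no binding was measured here.

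Syn1, Sh3gl2 and Unc13a are printed because they carry the rarer motifs, and Syt1 and Snap23 because they moved in opposite directions, 1 with and 1 without the GC box. Each runs 5′ to 3′ on the gene's strand, and capitals mark the motifs named for each gene. Syn1 is given at chrX:20920919-20921168 (minus strand), the 250 bases before the start, with the RE1 left arm and then the cAMP response element. Sh3gl2 is given at chr4:85205206-85205455 (plus strand), likewise 250 bases, with the cAMP response element. Unc13a is given at chr8:71671727-71671750 (minus strand), bases 8 to 31 after the start, where both RE1 arms read on the other strand with 8 bases between them. Syt1 is given at chr10:109010976-109011075 (minus strand) and Snap23 at chr2:120567571-120567670 (plus strand), each the last 100 bases before the start.
Syn1: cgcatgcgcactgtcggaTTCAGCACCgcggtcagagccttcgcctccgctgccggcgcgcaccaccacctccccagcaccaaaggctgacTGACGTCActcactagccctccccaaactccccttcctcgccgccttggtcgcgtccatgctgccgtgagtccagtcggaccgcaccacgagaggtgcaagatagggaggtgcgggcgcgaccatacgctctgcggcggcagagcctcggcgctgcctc
Sh3gl2: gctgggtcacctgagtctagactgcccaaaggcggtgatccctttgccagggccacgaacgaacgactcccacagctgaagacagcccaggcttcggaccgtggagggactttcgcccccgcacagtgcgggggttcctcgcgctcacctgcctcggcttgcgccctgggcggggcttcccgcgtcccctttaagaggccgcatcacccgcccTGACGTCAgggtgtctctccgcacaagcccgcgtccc
Unc13a: GCTGTCCgcgcccccGGTGCTGAA
Syt1: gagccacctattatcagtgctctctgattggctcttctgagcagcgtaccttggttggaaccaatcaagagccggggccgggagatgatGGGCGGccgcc
Snap23: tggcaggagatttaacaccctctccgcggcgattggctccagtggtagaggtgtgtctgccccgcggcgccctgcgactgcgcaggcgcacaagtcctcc

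Among the 16 vesicle proteins 10 were higher, 0 were lower and 6 did not pass (3 of these 6 with an unadjusted p below 0.05), with a median log2 fold change of 0.95. Rab3c, a GTPase that rides on vesicles, changed most in this step. Its levels were 7.43, 6.88, 6.62 and 6.66 on YFP-positive arrays 1 to 4, against 3.92, 4.72 and 4.37 on YFP-negative arrays 1 to 3. The groups lay far apart, with array 1 highest among the YFP-positive ones. The log2 fold change was 2.57 ± 0.25 (limma adjusted p = 6.61e-04). Syp encodes synaptophysin, the most used marker of synaptic vesicles. It stood at 8.01, 8.08, 7.41 and 7.38 in YFP-positive cells, against 5.59, 5.37 and 5.49 in YFP-negative cells, so that arrays 1 and 2 were above arrays 3 and 4 and all 4 were above the YFP-negative range. Its log2 fold change was 2.24 ± 0.20 (limma adjusted p = 4.36e-04).

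Sv2c encodes a transporter-like vesicle glycoprotein that also serves as a receptor for botulinum neurotoxin A. Its YFP-positive levels were 7.48, 6.56, 6.53 and 6.59, against YFP-negative levels of 4.54, 4.82 and 5.22. Array 1 stood apart from the other YFP-positive arrays, which agreed closely, and the groups did not overlap. The log2 fold change was 1.93 ± 0.27 (limma adjusted p = 0.00324). Syn1 encodes synapsin I, which ties vesicles to the cytoskeleton and to each other. It was measured at 7.26, 6.58, 6.64 and 6.39 in YFP-positive cells, against 5.08, 4.89 and 5.42 in YFP-negative cells. Again array 1 was highest and the ranges were apart, with a log2 fold change of 1.58 ± 0.22 (limma adjusted p = 0.00315). The other synapsins, Syn2 and Syn3, were higher by 1.56 ± 0.13 and 1.26 ± 0.13.

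Rab3a, the best studied of the vesicle Rab proteins, was at 6.93, 7.47, 7.10 and 6.80 in YFP-positive cells, against 6.12, 6.003 and 5.65 in YFP-negative cells. The ranges did not meet and array 2 was highest (log2 fold change 1.15 ± 0.18, limma adjusted p = 0.00508). The synaptogyrins Syngr1 and Syngr3, relatives of synaptophysin, were higher by 1.07 ± 0.13 and 0.70 ± 0.12. Sv2b was higher by 0.65 ± 0.15, a call that was lost in 5 of the 7 fits that each left 1 array out (all but those without YFP-positive 3 and without YFP-negative 3), where its limma adjusted p reached 0.0789. The 6 members of this step that did not pass were Sv2a (0.58 ± 0.20), Rab3b (0.83 ± 0.33), Rph3a (0.25 ± 0.07), Rab3d (0.04 ± 0.08), Synpr (0.02 ± 0.14) and Sypl, whose difference was -0.16 ± 0.08. Rph3a, an effector of Rab3, missed the threshold narrowly at a limma adjusted p of 0.051. Synpr averaged 4.47 in YFP-positive and 4.46 in YFP-negative cells, both below 5.06, so whether it changed cannot be read.

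Of the 11 SNAREs and regulators 6 were higher and 1 was lower, with a median log2 fold change of 0.25. Snap25, the plasma membrane SNARE of neurons, had, with Syt1, one of the 2 largest measured log2 fold changes of the 56 members, and Snap23, its relative in non-neuronal cells, was the member that passed as lower. Snap25 stood at 9.55, 9.11, 9.28 and 8.64 on the YFP-positive arrays, against 4.67, 4.90 and 4.92 on the YFP-negative arrays. Its lowest YFP-positive array, number 4, was still far above the YFP-negative range. The log2 fold change was 4.32 ± 0.20 (limma adjusted p = 4.08e-05). Snap23 stood at 8.43, 8.58, 8.67 and 8.64 in YFP-positive cells, against 9.47, 9.37 and 9.25 in YFP-negative cells. Each group was tight and they did not overlap. Its log2 fold change was -0.78 ± 0.08 (limma adjusted p = 8.79e-04), which makes YFP-negative cells 1.72-fold higher.

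Napb encodes beta-SNAP, the adaptor through which NSF reaches spent SNARE complexes. Its levels were 6.34, 6.46, 5.88 and 5.66 in YFP-positive cells, against 4.07, 3.84 and 4.36 in YFP-negative cells. Arrays 1 and 2 were above arrays 3 and 4, and the groups were apart by over 1 unit (log2 fold change 1.99 ± 0.22, limma adjusted p = 0.00108). Nsf itself differed by 0.08 ± 0.06 and did not pass. Stxbp5 encodes tomosyn, a syntaxin-binding protein that holds SNARE assembly back. It was at 8.75, 8.44, 8.39 and 8.56 in YFP-positive cells, against 7.10, 7.43 and 7.31 in YFP-negative cells, with ranges about 1 unit apart. Its log2 fold change was 1.25 ± 0.12 (limma adjusted p = 4.95e-04).

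Stx1a, the neuronal syntaxin, was higher by 0.71 ± 0.19, and the complexins Cplx1 and Cplx2, which clamp and then assist SNARE fusion, by 0.68 ± 0.17 and 0.24 ± 0.06. These 3 calls lay close to the threshold (limma adjusted p between 0.0347 and 0.0408). The count of 6 higher members in this step became 3 when YFP-positive array 1, YFP-positive array 2, YFP-negative array 1 or YFP-negative array 3 was left out, and the highest adjusted p over single arrays left out was 0.146 for Stx1a, 0.0932 for Cplx1 and 0.0904 for Cplx2. The vesicle SNAREs did not pass. Vamp1, a synaptobrevin best known from motor nerve terminals, was at 5.87, 5.86, 6.21 and 5.81 in YFP-positive cells, against 5.63, 5.75 and 5.68 in YFP-negative cells. The ranges were just apart, with a difference of 0.25 ± 0.10 (limma adjusted p = 0.161). Vamp3, or cellubrevin, which works in endosomal traffic of most cells, was at 8.88, 8.67, 8.56 and 8.63, against 8.97, 8.67 and 8.63, so that the groups overlapped (-0.07 ± 0.11). Vamp4, a SNARE of endosomes and the Golgi, differed by -0.08 ± 0.11. Vamp2, the main synaptobrevin of neurons, is not analysed here.

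The step named calcium sensors holds 13 synaptotagmin and Doc2 genes, not all of which encode proteins that bind calcium. Of these 13 genes 9 were higher, 0 were lower and 4 did not pass (2 of these 4 with an unadjusted p below 0.05). Their median log2 fold change, 1.22, was the highest of the 5 steps. Syt1, the fast calcium sensor of synchronous release, led them. It stood at 9.32, 9.04, 8.80 and 8.71 in YFP-positive cells, against 4.35, 4.88 and 4.95 in YFP-negative cells. Array 1 was the highest YFP-positive one, and over 3 units separated the groups. The log2 fold change was 4.24 ± 0.20 (limma adjusted p = 3.85e-05). Syt11, a synaptotagmin that does not bind calcium and acts in vesicle traffic, was at 9.07, 8.82, 8.49 and 8.78, against 5.36, 5.16 and 5.54 in YFP-negative cells. Both groups were tight and wide apart, with a log2 fold change of 3.43 ± 0.15 (limma adjusted p = 3.41e-05).

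Syt17 encodes an atypical synaptotagmin without the usual membrane-spanning segment. Its levels were 8.65, 8.47, 8.15 and 8.09 in YFP-positive cells, against 5.56, 5.04 and 6.04 in YFP-negative cells. The YFP-negative arrays were spread over 1 unit but stayed clear of the YFP-positive ones (log2 fold change 2.79 ± 0.25, limma adjusted p = 4.20e-04). Syt4, found on dense-core vesicles, which carry peptides, was at 7.34, 7.31, 6.90 and 6.31 in YFP-positive cells, against 5.05, 5.28 and 4.93 in YFP-negative cells. Here the YFP-positive arrays were the more spread, with array 4 lowest, and the groups were apart (1.88 ± 0.26, limma adjusted p = 0.00271). Syt7, the slow sensor of asynchronous release and of other calcium-triggered fusion, was at 6.86, 6.53, 6.51 and 6.69 in YFP-positive cells, against 5.60, 5.81 and 5.47 in YFP-negative cells. Its ranges did not meet and its log2 fold change was 1.02 ± 0.12 (limma adjusted p = 0.00124).

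Among the remaining sensors Doc2b, a soluble high-affinity sensor, was higher by 1.66 ± 0.22, Syt9 by 1.28 ± 0.14, Syt5 by 1.22 ± 0.23 and Syt6 by 0.77 ± 0.11. Syt2, which serves as the fast sensor at some synapses of the brainstem and at the neuromuscular junction, differed by 0.06 ± 0.06 and Syt3 by 0.08 ± 0.05. Syt2 and Syt3 averaged below 5.06 in both groups, so whether they changed cannot be read from these levels. Doc2a differed by 0.37 ± 0.14. Syt13 went the other way, at 6.10, 5.81, 6.16 and 5.99 in YFP-positive cells, against 6.61, 6.35 and 6.27 in YFP-negative cells. Its ranges were apart, and its difference of -0.40 ± 0.12 missed the threshold (limma adjusted p = 0.0583).

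**Figure D2:**
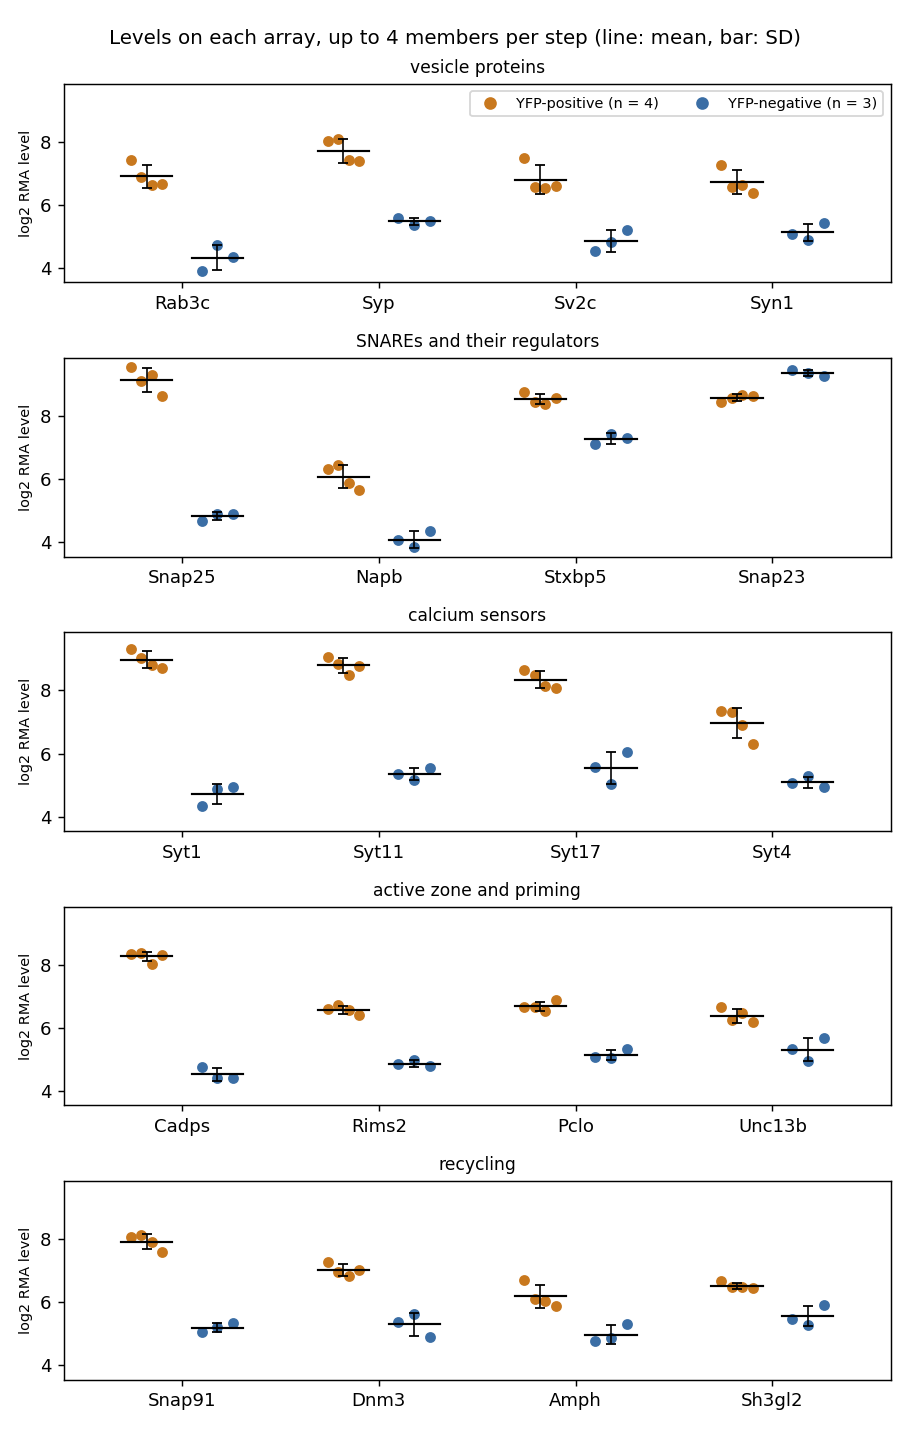
Log2 RMA level (y axis) on each array for 4 members of each step, YFP-positive (orange, n = 4) left of YFP-negative (blue, n = 3), with points in array order, a line at the group mean and a bar for the SD. These 20 genes were chosen because they passed the test with the largest changes of their step, so groups lying apart follow largely from that choice. The groups do not overlap for any of them, and Snap23 is the one with its YFP-positive points below. Levels of different genes are not comparable, since each has its own probes.

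Of the 10 active zone and priming genes 6 were higher, 0 were lower and 4 did not pass (0 of these 4 with an unadjusted p below 0.05), with a median log2 fold change of 0.53. Cadps encodes CAPS, which primes dense-core vesicles, and had the smallest adjusted p of all members. Its levels were 8.33, 8.36, 8.03 and 8.31 in YFP-positive cells, against 4.77, 4.41 and 4.41 in YFP-negative cells. Array 3 was a little below the other YFP-positive arrays, and over 3 units separated the groups. The log2 fold change was 3.73 ± 0.12 (limma adjusted p = 1.70e-05). Rims2, a scaffold that links Rab3 to calcium channels, was at 6.59, 6.73, 6.55 and 6.42 in YFP-positive cells, against 4.86, 4.97 and 4.78 in YFP-negative cells. Both groups were tight and apart (1.70 ± 0.09, limma adjusted p = 5.89e-05).

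Pclo encodes piccolo, a giant scaffold of the active zone. It was at 6.67, 6.66, 6.53 and 6.87 in YFP-positive cells, against 5.08, 5.03 and 5.33 in YFP-negative cells. Array 4 was the highest YFP-positive one, unlike in most members, and the ranges were over 1 unit apart (1.53 ± 0.11, limma adjusted p = 1.48e-04). Bsn, which encodes its relative bassoon, was higher by 0.53 ± 0.07 and Rims3 by 0.52 ± 0.08. Rims1 differed by 0.09 ± 0.11 and read exactly 5.62 on all 4 YFP-positive arrays and on YFP-negative array 2.

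Unc13b encodes Munc13-2, a priming factor. Its levels were 6.65, 6.24, 6.46 and 6.18 in YFP-positive cells, against 5.32, 4.95 and 5.68 in YFP-negative cells. The ranges were apart and the log2 fold change was 1.07 ± 0.19 (limma adjusted p = 0.00883). With YFP-positive arrays 3 and 4 left out together, a choice made after the data were seen, the adjusted p was 0.0623. Unc13a encodes Munc13-1, the main priming factor of many central synapses. The probe set taken for it, that with the highest mean, read 8.62, 8.85, 8.23 and 8.24 in YFP-positive cells, against 9.02, 8.73 and 8.64 in YFP-negative cells. Its groups overlapped, and the difference of -0.32 ± 0.18 did not pass (limma adjusted p = 0.296).

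Unc13a and Unc13c were the members with several probe sets, and for both the call depended on which was taken. Unc13a had 3 on the array. The platform annotation gave the one used no RefSeq mRNA, which was true of no other member, and listed a RefSeq mRNA for the other 2. The set with the second highest mean read 6.59, 6.68, 6.48 and 6.32 in YFP-positive cells, against 5.44, 5.21 and 5.48 in YFP-negative cells. The third read 7.01, 6.67, 6.59 and 6.67, against 4.72, 5.61 and 4.91. In both the groups were apart, with YFP-positive cells higher. Fitted over 21789 probe sets with 1 gene, an alternative added after the data were seen, their log2 fold changes were 1.14 ± 0.11 (limma adjusted p = 5.93e-04) and 1.65 ± 0.22 (limma adjusted p = 0.0024). With the mean of all 3 sets taken per gene, Unc13a was higher by 0.83 (limma adjusted p = 0.00227). Unc13c, which encodes Munc13-3, had 7 probe sets. The one used differed by 0.13 ± 0.11, and 1 of the other 6 passed, higher by 0.88 ± 0.13 (limma adjusted p = 0.00337). That set averaged 4.95 in YFP-positive and 4.07 in YFP-negative cells. Both means are below 5.06 and cannot be told from background. With the mean of its 7 sets Unc13c was higher by 0.39 (limma adjusted p = 0.011). The lowest of the 7 sets averaged 2.40 and 2.16, so the mean of the sets has the same limit.

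**Figure D3:**
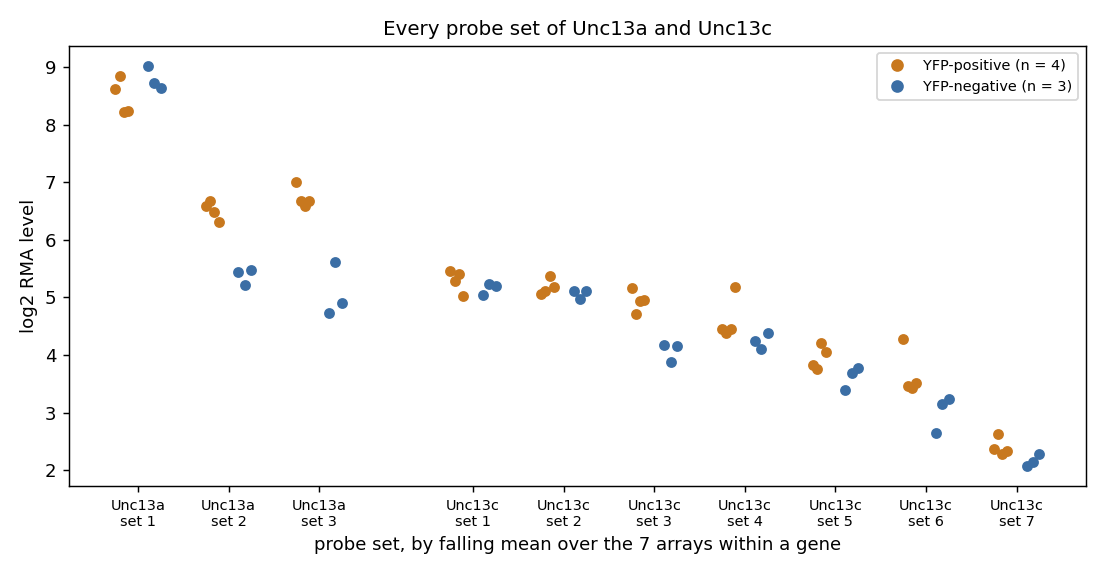
Log2 RMA level (y axis) on each array for every probe set of Unc13a (3 sets) and Unc13c (7 sets), ordered within a gene by mean, with YFP-positive arrays (orange, n = 4) left of YFP-negative arrays (blue, n = 3). Set 1 of each gene is the one used, and in Unc13a sets 2 and 3 the YFP-positive points all lie above the YFP-negative ones while in set 1 they overlap.

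Of the 6 genes of vesicle recycling 4 were higher and 0 were lower (of the other 2, Dnm1 had an unadjusted p below 0.05), with a median log2 fold change of 1.08. Snap91 encodes AP180, the clathrin adaptor of nerve terminals. It was at 8.05, 8.12, 7.90 and 7.58 in YFP-positive cells, against 5.05, 5.20 and 5.34 in YFP-negative cells. The groups were over 2 units apart, with a log2 fold change of 2.72 ± 0.14 (limma adjusted p = 5.97e-05), a 6.57-fold higher level. Dnm3, a dynamin, the GTPase that cuts budding vesicles free, was at 7.27, 6.94, 6.84 and 7.01, against 5.37, 5.63 and 4.90 in YFP-negative cells. The ranges were apart (1.71 ± 0.18, limma adjusted p = 9.24e-04). Dnm1, the dynamin best known from brain synapses, was at 7.21, 7.13, 7.33 and 7.45 in YFP-positive cells, against 7.51, 7.82 and 7.50 in YFP-negative cells. Every YFP-positive array was below, but the difference of -0.33 ± 0.11 did not pass (limma adjusted p = 0.0909).

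Amph, or amphiphysin, which senses membrane curvature and recruits dynamin, was at 6.71, 6.11, 6.04 and 5.88 in YFP-positive cells, against 4.76, 4.85 and 5.30 in YFP-negative cells. Array 1 was highest and the groups were apart (1.21 ± 0.22, limma adjusted p = 0.00957). Sh3gl2, or endophilin A1, which partners dynamin and synaptojanin, was at 6.67, 6.48, 6.47 and 6.43, against 5.48, 5.28 and 5.91 in YFP-negative cells. The 4 YFP-positive arrays agreed closely and lay above the others (0.95 ± 0.15, limma adjusted p = 0.0048). Synj1, the lipid phosphatase synaptojanin, which strips the clathrin coat, differed by 0.11 ± 0.15 with overlapping ranges.

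Within 8 pairs of related members, the change of one was set against that of the other by taking the difference of their log2 levels on each array. In 7 pairs this difference moved between the groups, each with an exact two-sided permutation p of 0.0286, the smallest that 35 assignments of 7 arrays can give, and 0.0327 after adjustment over the 8 pairs. The pairs were chosen with earlier results of these data known, so these p-values are not independent evidence that the changes are unequal. Snap25 changed by 5.10 more than Snap23, whose levels are given above, the widest of these differences. Cadps changed by 3.49 more than Cadps2, the other CAPS gene, which was at 3.98, 3.75, 3.62 and 3.62 in YFP-positive cells, against 3.55, 3.41 and 3.56 in YFP-negative cells. These Cadps2 levels are below 5.06 on all 7 arrays and cannot be told from background, so whether Cadps2 changed cannot be read from them. Syt1 changed by 3.22 more than Syt7, although both were higher.

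Syp changed by 2.40 more than Sypl, the widely expressed relative of synaptophysin. Sypl was at 8.09, 8.01, 8.23 and 8.23 in YFP-positive cells, against 8.33, 8.36 and 8.21 in YFP-negative cells, and its groups overlapped. Rab3a changed by 1.11 more than Rab3d, a Rab of secretory granules in exocrine and other cells. Rab3d read 5.51 on all 4 YFP-positive arrays, against 5.53, 5.60 and 5.30 on the YFP-negative ones. A value repeated to 4 decimals on 3 or more arrays was found in 5 members (Synpr, Rab3d, Syt2, Syt3 and Rims1), and 0 of these passed the limma test.

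In 2 pairs the second gene changed more. Dnm1 changed by -2.05 relative to Dnm3, and Unc13a by -1.38 relative to Unc13b. With the mean of all probe sets per gene, the difference of Unc13a from Unc13b became -0.24 (exact permutation p = 0.429 after adjustment). Vamp1 and Vamp3 differed in their change by 0.32, and the exact permutation p of 0.171 did not pass.

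**Figure D4:**
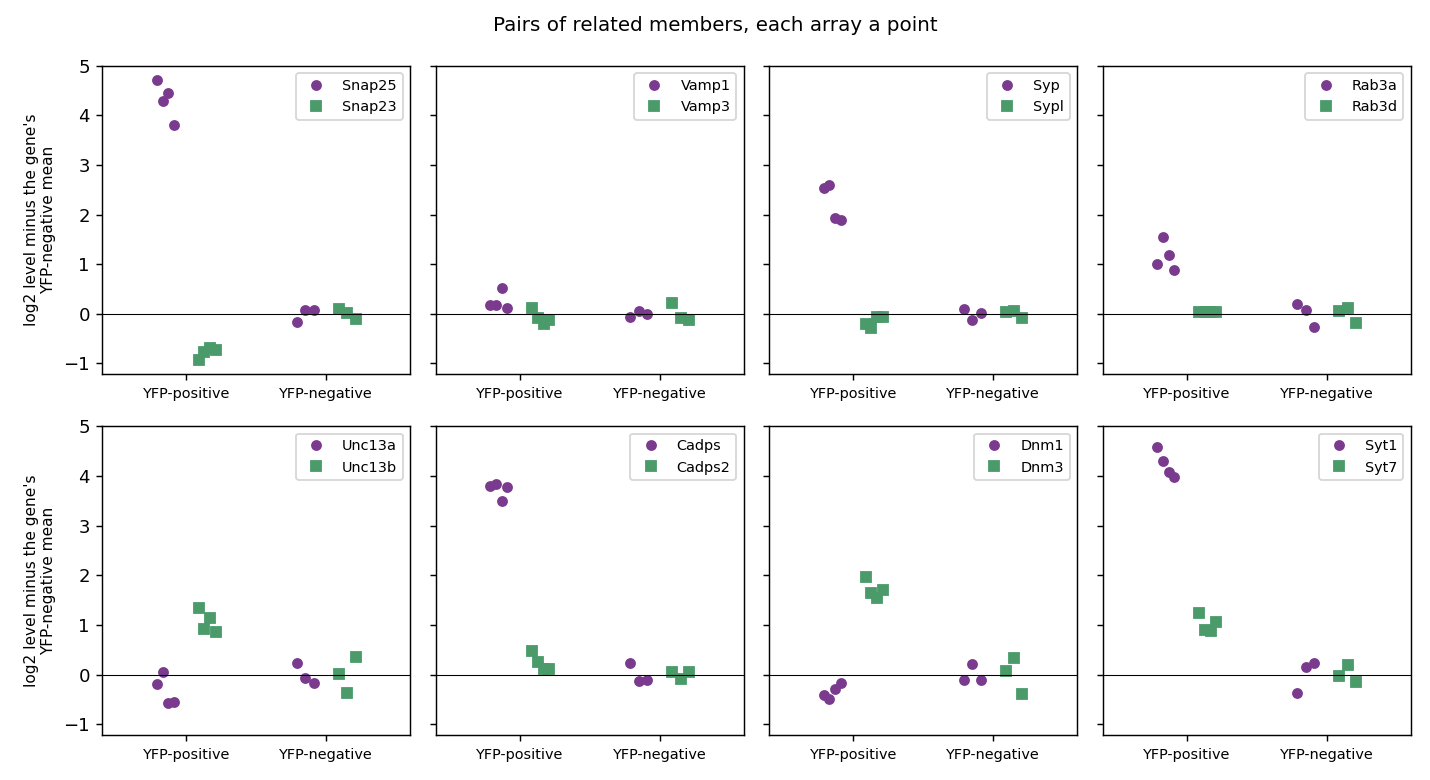
Log2 level on each array minus the gene's own YFP-negative mean (y axis) for 8 pairs of related members, with the first gene as purple circles and the second as green squares, and YFP-positive arrays left of YFP-negative arrays. In the panel of Snap25 and Snap23 the YFP-positive points of the genes lie on opposite sides of 0, and in the panel of Vamp1 and Vamp3 they lie near 0.

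The YFP-positive arrays differed among themselves along the members. Of the 35 higher members 22 were highest on array 1, 9 on array 2, 2 on array 3 and 2 on array 4. The lowest YFP-positive array was number 4 for 19, number 3 for 14, number 2 for 2 and number 1 for 0 of them. In 22 of the 35, arrays 1 and 2 were both above arrays 3 and 4, and in 0 the reverse held. The mean log2 level of the 35 was 7.21, 7.02, 6.85 and 6.78 on arrays 1 to 4, against 5.24, 5.30 and 5.40 on the YFP-negative arrays.

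Marker lists moved along the same arrays. The neuron markers averaged 9.24, 9.34, 8.87 and 8.65 on YFP-positive arrays 1 to 4, and the enteric glia markers 8.69, 8.66, 8.28 and 8.30. The intestinal epithelium markers averaged 7.33, 7.67, 8.24 and 8.49 on these arrays, and the smooth muscle markers 8.20, 9.04, 9.66 and 10.1. The enteroendocrine markers averaged 6.15, 6.36, 6.87 and 7.25 on arrays 1 to 4, the fibroblast markers 7.58, 7.95, 8.48 and 8.74, and the myeloid markers 5.52, 5.83, 6.45 and 6.51. On the YFP-negative arrays the smooth muscle list averaged between 10.3 and 10.9. Arrays 3 and 4 were thus lower in neuron, glia and vesicle cycle genes and higher in epithelium, enteroendocrine, smooth muscle, fibroblast and myeloid genes than arrays 1 and 2. The part of these other cell types in the spread of the members was not tested. Without arrays 3 and 4, a choice made after the data were seen, 31 members were higher and 1 was lower, with a median log2 fold change of 1.01. That fit called 2684 of all 19938 genes in either direction, against 3489 with all 7 arrays.

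**Figure D5:**
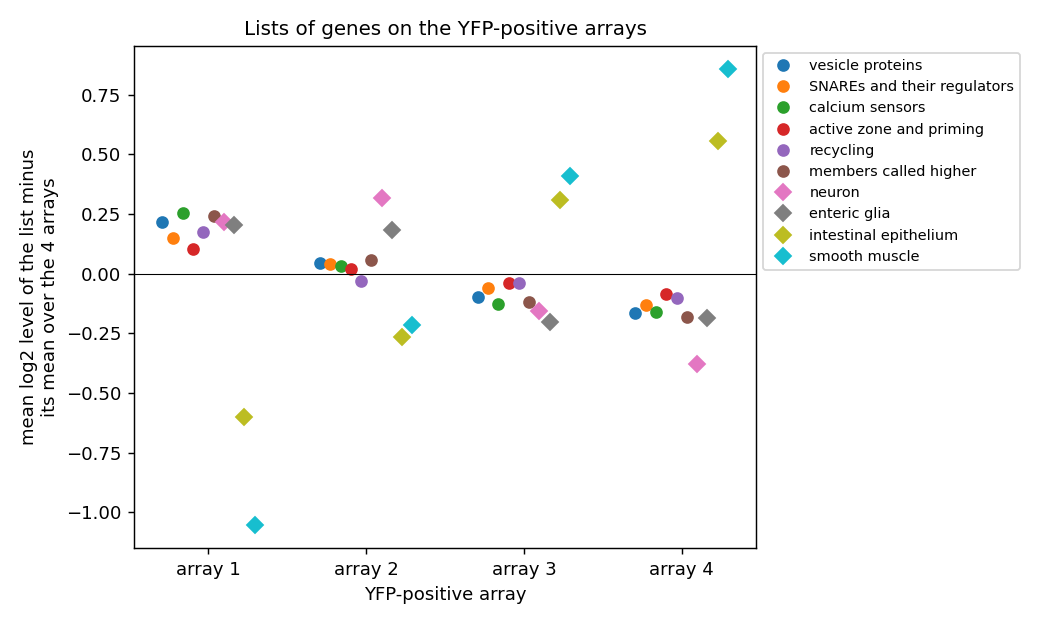
Mean log2 level of each gene list on YFP-positive arrays 1 to 4 minus its mean over the 4 arrays (y axis), with circles for the 5 steps and the 35 higher members and diamonds for marker lists. The steps, the neuron and the enteric glia lists lie above 0 on array 1 and below 0 on arrays 3 and 4, and the intestinal epithelium and smooth muscle lists do the opposite.

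Other genes of the same steps were counted from a list of 83, of which 79 are analysed here. Of these 16 were higher, 8 were lower and 55 did not pass, with a median log2 fold change of 0.01. Their share of higher genes, 20.3%, lies between the 62.5% of the members and the 8.39% of all genes, and their share of lower genes, 10.1%, is near the 9.11% of all genes. Of the 16 active zone genes 8 were higher and 0 were lower. Among those that did not pass, Ppfia1 (0.22 ± 0.07) and Unc13d (-0.38 ± 0.14) had an unadjusted p below 0.05 in the limma fit. Erc2, a scaffold that binds RIM and bassoon, averaged 7.19 ± 0.33 in YFP-positive cells and 4.97 ± 0.14 in YFP-negative cells (SD), a log2 fold change of 2.22 ± 0.18 (limma adjusted p = 2.86e-04). Cacna1b, the pore of the N-type calcium channel that triggers release from enteric neurons, averaged 6.74 ± 0.20 and 4.98 ± 0.14, a log2 fold change of 1.76 ± 0.13 (limma adjusted p = 1.69e-04). The YFP-negative means of Erc2 and Cacna1b are below 5.06 and cannot be told from background.

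Transmitter loading genes were measured with the other vesicle proteins, of which 4 of 17 were higher and 2 lower. Slc18a3, the vesicular acetylcholine transporter, averaged 8.08 ± 0.33 in YFP-positive cells and 4.74 ± 0.39 in YFP-negative cells (SD), a log2 fold change of 3.34 ± 0.23 (limma adjusted p = 1.54e-04). This YFP-negative mean is below 5.06 and cannot be told from background. Slc18a2, the vesicular monoamine transporter, was higher by 1.97 ± 0.25. Slc17a6 (0.14 ± 0.11), Slc17a7 (0.02 ± 0.05) and Slc17a8 (0.003 ± 0.08), also vesicular transporters, did not pass. Neither did Slc32a1 (-0.006 ± 0.05) and Slc18a1 (-0.41 ± 0.24). Apart from Slc18a1, the uncalled transporters averaged below 5.06 in both groups, so whether they changed cannot be read. Syngr2, the synaptogyrin of non-neuronal cells, and Rab27a, a Rab of secretory granules and lysosome-related organelles, were lower by log2 fold changes of -1.07 ± 0.15 and -0.86 ± 0.07.

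Of 16 other SNAREs and regulators 1 was higher and 3 were lower. Stxbp5l, a second tomosyn, was higher by 0.96 ± 0.14. Its YFP-negative mean, 4.81, was below 5.06 and cannot be told from background. Vamp8, the granule SNARE of exocrine and immune cells, averaged 8.30 ± 0.41 in YFP-positive cells and 9.68 ± 0.10 in YFP-negative cells (SD), a log2 fold change of -1.38 ± 0.21 (limma adjusted p = 0.00474). Stxbp2, or Munc18-2, which acts with such SNAREs in epithelial, mast and cytotoxic cells, was lower at -0.52 ± 0.08. Among the other sensors Syt16 was higher by 0.47 ± 0.12 and Sytl2, a synaptotagmin-like effector of Rab27, was lower at -1.42 ± 0.31, 1 of 11 in each direction. The YFP-negative mean of Syt16, 4.75, and the YFP-positive mean of Sytl2, 4.99, were likewise below 5.06. Among 19 other recycling genes Sh3gl3 (0.99 ± 0.13) and Ap2b1 (0.51 ± 0.10) were higher, and Synj2 (-0.79 ± 0.18) and Dnm2 (-0.33 ± 0.09), the widely expressed dynamin, were lower. The count of 8 lower genes became 5 when YFP-positive array 2 was left out, and likewise with YFP-negative array 2 left out.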

How the data were processed

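RNA of 7 sorted samples was measured, 4 YFP-positive and 3 YFP-negative, grouped by the cell population in the labels. Per the labels' protocols, total RNA was extracted with Trizol and amplified with a kit for very small amounts. The deposited values are log2 levels per probe set, and the submitters' processing notes name Affymetrix Expression Console and RMA, with versions not given in the sources used here. RMA corrects background and brings arrays to one distribution, which, like amplification, can compress differences. Depth has no meaning for arrays, and their number limits the precision. All sample columns were matched by name (0 unmatched).

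Of 35556 probe sets 21789 had 1 gene symbol in the platform annotation, and the set with the highest mean over 7 arrays was kept per gene, which left 19938 genes. The difference YFP-positive minus YFP-negative was fitted on all 7 arrays with lmFit and eBayes (limma 3.58.1, R 4.3.3) and adjusted over all genes by Benjamini-Hochberg, with a threshold of 0.05. No filter on low values was applied. A separate fit with lmFit and eBayes was run on simulated data, where only its mean estimates were checked. Tables and figures were made with Python 3.11.15, pandas 2.3.3, numpy 2.4.6 and matplotlib 3.10.9.

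The members, lists, pairs and motifs were chosen with earlier results of these data known. Levels on every array are given for up to 4 called members of each step with the largest change, each lower member and both members of each pair. Of the other pathway genes up to 2 per step and direction are named. Syt13 and members near the threshold were named after their values were seen. Alternatives were another prior, 2 scalings, a filter on low genes, the mean of probe sets, array weights, a replicate block, a fold threshold and arrays left out.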

Additional observations from a re-analysis of the deposited data

Results flagged for a closer look

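Among the 56 members 6 had 1 YFP-positive array set apart from the other 3 by a gap that was most of the group's range, above Dixon's 95% critical value for 4 samples. Chance flags about 1 in 20 groups. Sv2c read 7.48 on array 1, against 6.53 to 6.59 on the others. Doc2b read 8.09 on array 1, against 7.21 to 7.32. Syt2 read 5.08 on array 1 and 4.93 on each of the others, and Syt3 read 4.56 on array 1 and 4.52 on each of the others, in both genes 1 value repeated on 3 arrays. Vamp1 read 6.21 on array 3, against 5.81 to 5.87. Cadps read 8.03 on array 3, the lowest, against 8.31 to 8.36. Sv2c, Doc2b and Cadps passed the limma test as higher also without the array in question, and Vamp1, Syt2 and Syt3 did not pass with it.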

How the results depend on the processing

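Of the 36 members called, 30 kept their call and direction in all 15 alternatives other than the test against a fold of 1.5. The calls lost were those of Sv2b, Stx1a, Cplx1 and Cplx2 in several alternatives, of Unc13b without YFP-positive arrays 3 and 4, and of Amph with the replicate block. Calls gained as higher were those of Rph3a in 5 alternatives (lowest adjusted p 0.017, without YFP-negative array 1), Sv2a without YFP-negative array 1 (adjusted p 0.0346) and Rab3b with the replicate block (0.96, adjusted p 0.0252). A test against a 1.5-fold change (limma treat) called 20 members higher and 0 lower. It called 1027 of all 19938 genes in either direction. The 20 members were 6 vesicle proteins, 3 SNAREs and regulators, 6 calcium sensors, 3 active zone genes and 2 recycling genes. Of the other pathway genes it called 4 higher and 0 lower. With the genes of the third with the lowest mean left out, or with array weights, 2 members were lower, since Syt13, 1 of the calcium sensors, passed too. The median log2 fold change of the members was 1.02 with those low genes left out and 1.01 without YFP-positive arrays 3 and 4, where 5 other pathway genes were lower. Leaving out each array in turn, the higher SNAREs numbered 3 to 5 and the lower other pathway genes 5 to 9. The labels do not say whether the replicate numbers shared by the groups pair the samples. Deviations from the group means of same-numbered arrays correlated at 0.0084, -0.09 and 0.04. As the groups are different cells, these values cannot decide whether the samples are paired. The fit with the number as a replicate block called 2509 genes, against 3489, with 3 higher SNAREs and 10 higher other pathway genes. Members that changed sign, none of them called, were Synpr (-0.00965 with array weights, and -0.10 to 0.121 with single arrays left out), Rab3d (-0.0208 and -0.051 to 0.0988), Rims1 (-0.0429 to 0.182 with single arrays left out), Synj1 (-0.0255 to 0.287), Vamp3 (-0.134 to 0.037, and 0.0204 without YFP-positive arrays 3 and 4) and Vamp4 (0.0373 without those arrays). Unc13a turned to 0.83 (Unc13c, not called otherwise, to 0.39), and its difference from Unc13b to -0.24 (exact permutation p = 0.429 after adjustment), with the mean of all probe sets. The cause was not tested. Of the members 5 (Synpr, Sv2b, Syt2, Syt3 and Cadps2) had mean log2 levels below 5.06, the limit of those low genes. Without detection calls such levels cannot be told from background.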
